A study of Mus musculus with 8 samples.

Results

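The distal chromosome 7 imprinted domain of the mouse was described by DNA methylation at 8 genes, H19, Igf2, Ins2, Ascl2, Kcnq1, Kcnq1ot1, Cdkn1c and Phlda2. Its members were chosen by position. A CpG counted if, with its strands merged, each of the 8 libraries had 10 or more reads of it and it lay in the mm10 body of one of these genes or within 5 kb of either end, and the 1 kb tiles that held such CpGs were taken with them. This gave 231 of 441994 autosomal CpGs, in 27 tiles, of which 20 had the 3 CpGs needed for a test. H19 had 4 CpGs, Igf2 64, Ascl2 42, Kcnq1 60, Cdkn1c 29 and Phlda2 32. The 9 CpGs of Kcnq1ot1 lay inside Kcnq1 and are part of its 60. Ins2, an insulin gene, had no CpG that met the minimum.

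The cells were nephron progenitors, the stem cells of the nephron, and the assay was reduced representation bisulfite sequencing (RRBS), in which CpG-rich fragments of a restriction digest are sequenced after bisulfite treatment. In the calorie-restricted group (CRD, 4 libraries), pregnant dams received 70% of the average daily food intake. In the unrestricted group (URD, 4 libraries), dams ate freely. In both groups wild-type females of the outbred CD1 stock, 8 to 10 weeks old, had been mated to males carrying the Six2-EGFP/cre transgene, and green fluorescent cells were sorted from the kidneys of their heterozygous E17.5 offspring, so every library carries the transgene and no library comes from embryos without it. The Six2 promoter that drives the reporter is active in nephron progenitors. Embryos were not separated by sex, and whether a library held 1 litter or several is not given in the labels. All p-values therefore refer to the spread between libraries, which may be technical.

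Imprinted genes are expressed from the allele of 1 parent, under control regions whose DNA methylation is set in the germ line. The domain holds a pair of such regions. Upstream of H19, a noncoding RNA, the paternal allele is methylated, which blocks the insulator protein CTCF and lets the distant enhancers reach Igf2, the gene of a fetal growth factor. At the promoter of Kcnq1ot1, a long antisense RNA that starts inside Kcnq1, the maternal allele is methylated and silent. The unmethylated paternal allele makes the RNA, which represses neighbours in cis, among them Cdkn1c, a cyclin-dependent kinase inhibitor and growth suppressor, Phlda2, a growth suppressor of the placenta, and Ascl2, a transcription factor of the placenta. In the fetal kidney Igf2 and H19 are strongly expressed, and disturbed imprinting of this domain is known from Beckwith-Wiedemann syndrome and from Wilms tumour, a kidney tumour with features of nephron progenitors. A region methylated on 1 parental allele reads at an intermediate level in DNA from both alleles. The counts do not separate the alleles, so the allele on which a level differs cannot be told.

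Read counts summed over all cytosines of a library came to 16045992 to 37305007. A read that spans several CpGs counts at each of them, so these are not numbers of sequenced reads. The median shared CpG had 20 to 44 reads. In CRD libraries 1 and 2 the read-weighted mean methylation minus the plain mean over the shared CpGs was -2.24 and -3.28 points, while the other 6 libraries had -0.575 to 0.817 points. Of 10 nephron progenitor genes, 5 had CpGs within 1 kb of a start (Six2, Pax2, Sall1, Hoxd11 and Gdnf), with group means of 0.0315 to 0.162%. Starts of early nephron genes (4 of 5 measured, 0 to 0.796%) and ureteric bud genes (3 of 4 measured, 0.0496 to 0.741%) were also nearly free of methylation. So were those of stromal genes (2 of 3 measured, 0.0126 to 0.0580%), and these starts do not tell the sorted cells from their neighbours. Endothelial starts (0 of 5 measured) gave no value and blood starts (1 of 4 measured, Cd34) were at 0.0638 to 0.0744%.

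Promoters of the domain for which RefSeq (GRCm38.p6, the coordinates of mm10) gave a sequence are shown for Phlda2, Ascl2 and Kcnq1ot1, since the measured CpGs cover the first pair well and the third not at all. Each runs 5′ to 3′ along the minus strand and covers the 250 bases before the start, with the measured CpGs in capitals.
Phlda2, chr7:143502525-143502774: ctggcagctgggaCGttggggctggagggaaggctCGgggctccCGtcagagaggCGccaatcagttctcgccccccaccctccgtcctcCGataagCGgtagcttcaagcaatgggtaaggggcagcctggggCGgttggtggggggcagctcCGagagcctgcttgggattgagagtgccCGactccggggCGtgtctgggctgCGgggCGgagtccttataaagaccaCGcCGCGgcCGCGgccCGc
Ascl2, chr7:142969265-142969514: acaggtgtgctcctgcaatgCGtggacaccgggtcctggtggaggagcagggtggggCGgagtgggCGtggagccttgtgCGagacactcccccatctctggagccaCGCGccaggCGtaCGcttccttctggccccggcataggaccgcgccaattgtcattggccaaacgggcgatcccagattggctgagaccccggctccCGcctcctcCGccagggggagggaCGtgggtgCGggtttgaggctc
Kcnq1ot1, chr7:143296548-143296797: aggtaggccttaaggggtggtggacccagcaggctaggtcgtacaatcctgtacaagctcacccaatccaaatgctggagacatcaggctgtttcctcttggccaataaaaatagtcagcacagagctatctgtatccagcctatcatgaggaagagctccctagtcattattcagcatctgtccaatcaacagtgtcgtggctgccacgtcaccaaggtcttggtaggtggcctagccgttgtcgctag
The Phlda2 promoter holds 21 CpGs, of which 18 were measured, and 16.3% of 32851 RefSeq promoter windows hold as many or more. The Ascl2 promoter holds 19 CpGs, of which 12 were measured, and 19.7% of windows hold as many. The Kcnq1ot1 window holds 5, of which 0 were measured. Of 4 Igf2 promoters in the table, 1 had a single measured CpG (chr7:142657497-142657746) and 3 had none.

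The levels of the domain ran from unmethylated promoters to intermediate and highly methylated gene bodies in both groups. By the mean over the 8 libraries, 181 CpGs were below 20%, 44 between 20 and 80% and 6 above 80%. Upstream of H19 the 4 CpGs stood at 59.8% ± 6.17, and at the Kcnq1ot1 start 9 CpGs stood at 8.33% ± 9.62. In the Cdkn1c body, 1623 to 1713 bp downstream of the start, 14 CpGs stood at 13.9% ± 6.24. Around the Phlda2 start 32 CpGs stood at 0.706% ± 0.714 (SD, n = 8 libraries for each of the 4 regions). The label of a maternally methylated region, which belongs to Kcnq1ot1, was thus not met by an intermediate level at the 9 Kcnq1ot1 CpGs. A shallower run beside them, under the minimum of reads, stood at 36.4% (16 of 44 reads at its first CpG, both groups). The 3 regions outside H19 are named by their place and not by a parental mark in what follows.

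**Figure D1:**
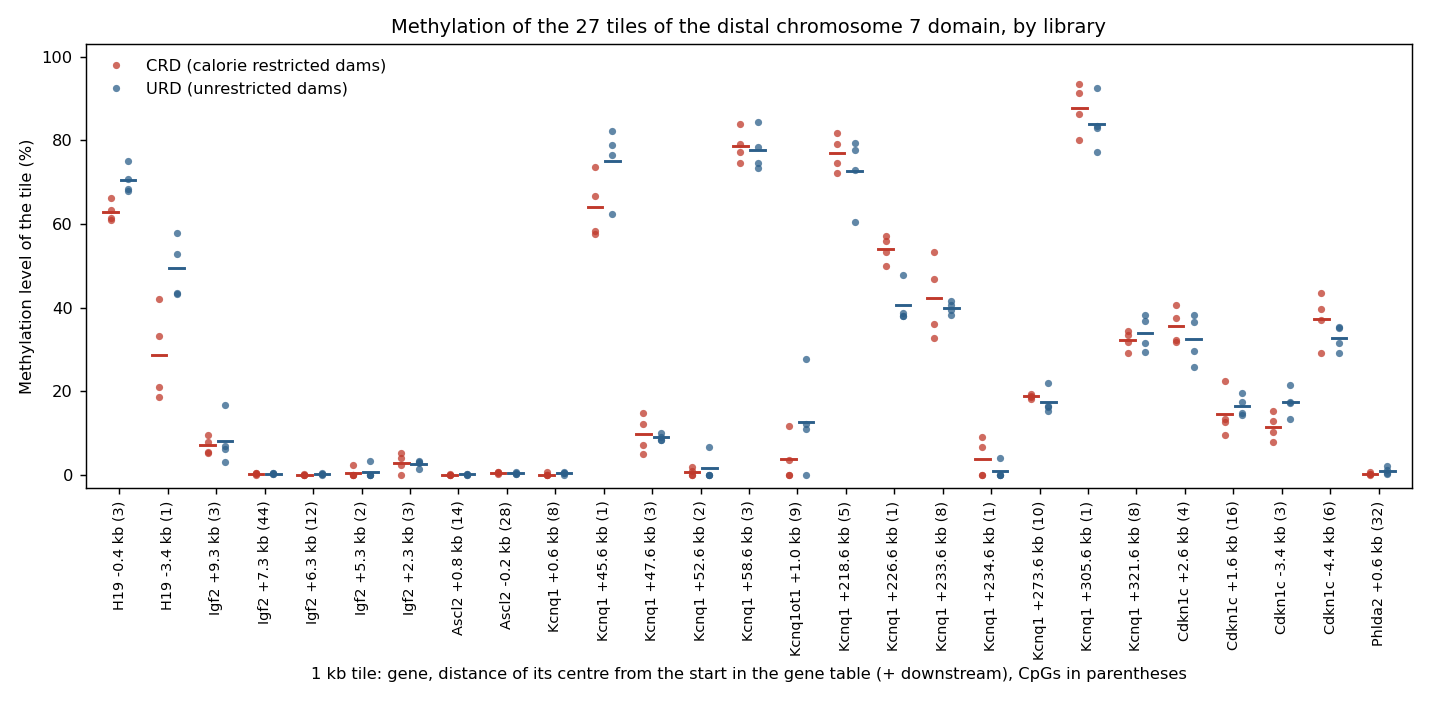
Methylation level (%, y axis) of the 27 tiles of 1 kb along the domain, from H19 on the left to Phlda2 on the right, with 1 point per library, CRD in red to the left of URD in blue, and the group mean as a bar. The Igf2, Ascl2 and Phlda2 tiles lie near 0 apart from the tile at the 3′ Igf2 promoter, the H19 tiles lie between 18.8 and 75%, and the Kcnq1 tiles spread from 0 to 93.3%. At both H19 tiles every CRD point lies below every URD point. At the Kcnq1 tile at chr7:143333001-143334000 every CRD point lies above every URD point. That Kcnq1 tile and the H19 tile farther from the start hold 1 CpG each and were not tested.

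Maternal restriction moved no unit of the domain past the threshold of the fit. No tile of 20 tested, no CpG of 163 tested, no gene region (body plus 5 kb) of 7 and no gene-end window (2 kb to either side) of 10 was called by logistic regression with Benjamini-Hochberg adjustment over the whole table, at an adjusted p under 0.05. Over all features, 0.0177% of tiles, 0.0997% of CpGs, 0% of gene regions and 0.0312% of windows were called. At an unadjusted p under 0.05 the domain had 1 tile, 8 CpGs, 2 gene regions and 2 windows, which hold the same 32 Phlda2 CpGs and are 1 observation, and over all features 6.32% of tiles, 5.62% of CpGs, 11.3% of gene regions and 7.12% of windows reached it, so the shares of tiles and CpGs in the domain were near the background. limma on M-values also called 0 members of each kind, with 0 tiles, 15 CpGs, 1 gene region and 0 windows at an unadjusted p under 0.05. Over all features limma called 0% of each kind, and 6.41% of tiles, 6.94% of CpGs, 8.4% of gene regions and 6.79% of windows had an unadjusted p under 0.05. edgeR called 1 tile and 1 window, both at the Kcnq1ot1 start, and 0 CpGs and 0 gene regions, where it called 0.325% of all tiles, 0.234% of windows, 0.048% of CpGs and 0.019% of gene regions. The 68 CpGs not tested had no methylated or no unmethylated read in any library. The median difference, CRD minus URD, was -0.0235 points over the tested tiles of the domain against -0.0116 points over all tested tiles, and -0.625 points over its tested CpGs against -0.143 points over all. Of the 163 CpGs, 100 were lower and 63 higher with restriction. That excess lay at CpGs below 20% methylation, with 79 lower and 34 higher. At 20 to 80%, 20 were lower and 24 higher, and above 80%, 1 was lower and 5 were higher. The share of lower CpGs over all features is not given here.

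The H19 side was the region of the domain where the diet groups stood apart, with lower methylation after maternal restriction. Its 4 CpGs averaged 54.7, 52.2, 54.0 and 56.6% in CRD libraries 1 to 4, against 64.5, 61.7, 67.5 and 67.1% in URD libraries 1 to 4. Every CRD library lay below every URD library. The mean was 54.4% ± 1.81 in CRD and 65.2% ± 2.70 in URD (SD, n = 4 each), a difference of -10.8 points (exact two-sided permutation test over 70 splits, p = 0.0286, the smallest it can give). This p is unadjusted over the 4 regions contrasted and over the further regions to which the test was applied. In the fit over all gene regions the same CpGs gave p = 0.0298 in the quasi-binomial model and an adjusted p of 0.385, so the difference was not a call. Gene regions in which all CRD libraries lay below all URD libraries made up 3.9% of all those tested, and 6.12% of those at 20 to 80% methylation. Of the 10 gene-end windows the H19 start was the 1 with that order, which 1.58% of all tested windows showed (4.06% of those at 20 to 80%). In the opposite direction, 0 of 20 tiles, 0 of 7 gene regions and 0 of 10 windows of the domain had every CRD library above every URD library, against 0.997% of all tested tiles, 0.659% of gene regions and 0.838% of windows. Of the 163 tested CpGs, 2 in Kcnq1 had that order and 1 the opposite.

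All 4 H19 CpGs were upstream of the gene (body chr7:142575530-142578146, minus strand), and they fell into a group of 3 near the start and 1 CpG farther out. The CpG at chr7:142581230 lay 3084 bp upstream, where the imprinting control region is known to lie, though its limits were not in the tables used here. It read 21.1, 18.8, 33.3 and 42.1% in CRD libraries 1 to 4, against 52.9, 43.2, 57.9 and 43.5% in URD libraries 1 to 4. The groups did not overlap, but the highest CRD library and the lowest URD library were about equal, and CRD libraries 1 and 2, whose reads lean to unmethylated CpGs, were the lowest of all. The mean was 28.8% ± 10.9 in CRD and 49.4% ± 7.25 in URD, a difference of -20.6 points (p = 0.0172, adjusted p = 0.622 in the quasi-binomial fit over all CpGs). With that lean of the reads as a covariate in the quasi-binomial fit, the unadjusted p was 0.368 at this CpG and 0.127 for the H19 gene region. Without CRD libraries 1 and 2 the difference was -11.7 points (adjusted p = 0.755 in the same fit).
With 16 to 37 reads at this CpG, counting error alone was wide. The Wilson 95% interval was 6.59 to 43.0% for CRD library 2 and 23.1 to 63.7% for CRD library 4, against 28.7 to 59.1% for URD library 2 and 36.3 to 76.9% for URD library 3. Such intervals and the limits for a count of 0 hold for counting error alone, because RRBS without molecular identifiers cannot tell PCR copies from separate molecules. This CpG was the only one of 163 with every CRD library below every URD library, and 0.948% of all tested CpGs showed that order (1.98% of those at 20 to 80%).

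The 3 CpGs near the H19 start lay 711 to 719 bp upstream, at chr7:142578857, 142578861 and 142578865, close enough to be read on the same fragment. Their tile stood at 66.1, 63.3, 60.9 and 61.4% in CRD libraries 1 to 4, against 68.3, 67.8, 70.7 and 75% in URD libraries 1 to 4. Here too no CRD library reached the lowest URD library. Within CRD, libraries 1 and 2 were the highest at this tile, where they had been the lowest at the CpG farther out. The tile averaged 62.9% ± 2.38 in CRD and 70.5% ± 3.27 in URD, a difference of -7.52 points (p = 0.115, adjusted p = 0.773 in the quasi-binomial fit over all tiles). It was the only one of 20 tested tiles with this order of groups, which 1.26% of all tested tiles had (2.41% of those at 20 to 80%). The 3 CpGs differed among themselves more than the diets did. The CpG nearest the gene averaged 45.4% in CRD and 49.5% in URD, the middle one 65.0% in CRD and 74.9% in URD, and the outermost 78.2% in CRD and 86.9% in URD. At each of these 3 the libraries of the groups overlapped or touched, with 10 to 29 reads per library.

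**Figure D2:**
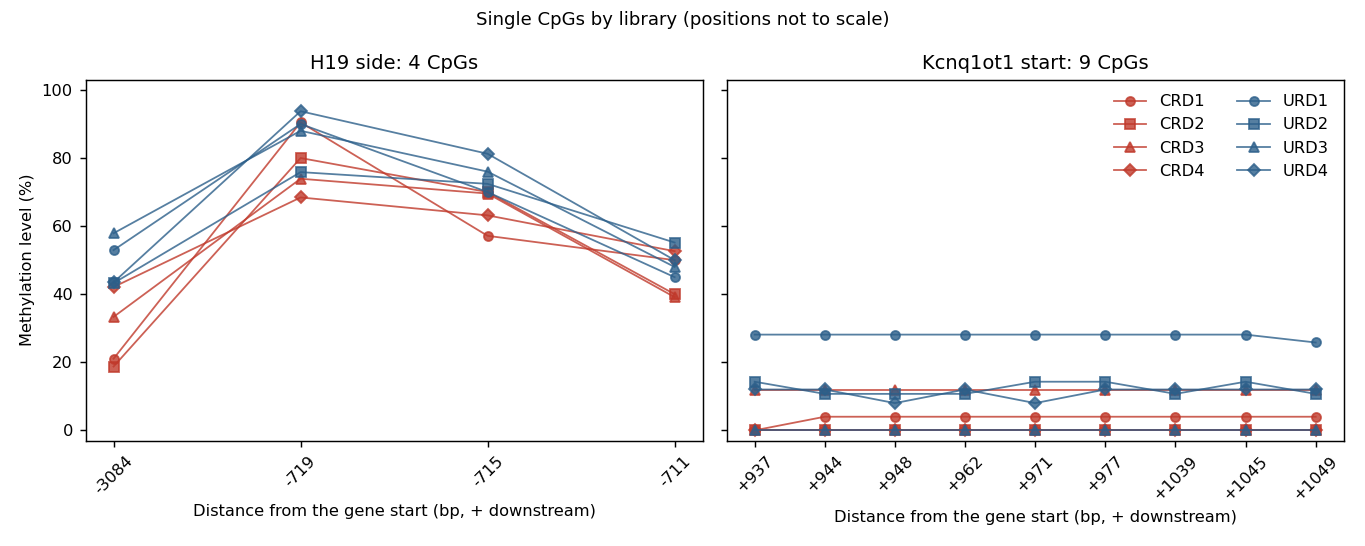
Methylation level (%, y axis) of single CpGs against their distance from the gene start in bp (x axis, not to scale), with 1 line per library, CRD in red and URD in blue. The 4 CpGs upstream of H19 (left) each have their own level in every library, while the 9 CpGs at the Kcnq1ot1 start (right) give nearly flat lines, 1 level per library, between 0 and 28.1%.

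The direction at H19 held only for the upstream CpGs. When the minimum was lowered to 5 reads, H19 had 11 CpGs, and the 7 added ones were higher in CRD. A pair of CpGs in the gene body averaged 89.0% ± 4.00 in CRD and 79.6% ± 2.82 in URD. The 5 CpGs beyond its 3′ end, 6360 to 6414 bp downstream of the start and covered by 5 to 23 reads, averaged 48.0% ± 8.52 in CRD and 29.2% ± 2.91 in URD. Over all 11 CpGs the level was 57.8% ± 4.53 in CRD and 51.5% ± 2.14 in URD, a difference of 6.32 points in the other direction (exact permutation p = 0.0571). No upstream CpG was added at this depth, so the upstream difference remained -10.8 points. No H19 CpG had 20 reads in every library.

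**Figure D3:**
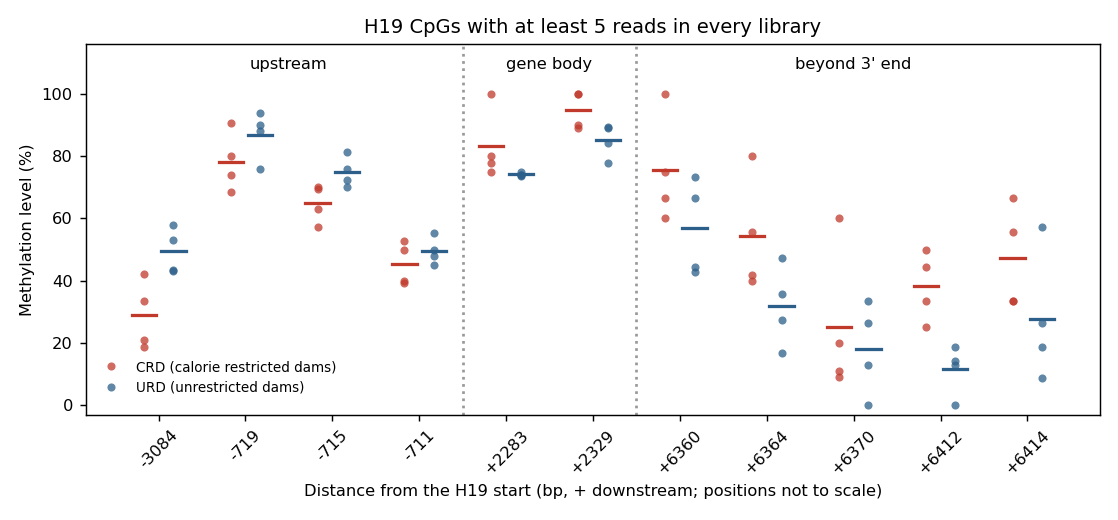
Methylation level (%, y axis) of the 11 H19 CpGs with at least 5 reads in every library, by distance from the start in bp (x axis, not to scale), with 1 point per library and the group mean as a bar. The 4 upstream CpGs have lower CRD means than URD means, and the 7 CpGs of the body and beyond the 3′ end have higher CRD means, with wide scatter between libraries.

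Igf2, which shares the enhancers of H19, was nearly unmethylated in both groups at the CpGs that met the minimum, only 1 of which lay in a listed promoter. Its 64 CpGs, all in the gene body, averaged 0.707% ± 0.187 in CRD and 0.780% ± 0.322 in URD, and 40 of them had no methylated read in any library. At 5 reads 34 CpGs were added, which averaged 9.32% ± 2.01 in CRD and 7.94% ± 0.624 in URD, and all 98 then averaged 3.70% ± 0.738 in CRD and 3.26% ± 0.238 in URD. The CpG in the promoter at chr7:142657497-142657746 averaged 7.12% ± 2.30 in CRD and 6.70% ± 7.22 in URD. The densest tile, with 44 CpGs at chr7:142659001-142660000, stood at 0.353% ± 0.133 in CRD and 0.316% ± 0.125 in URD. The highest tile, with 3 CpGs at chr7:142657001-142658000 over the promoter nearest the 3′ end, stood at 5.61, 5.26, 8.05 and 9.52% in CRD libraries 1 to 4, against 3.23, 6.90, 6.25 and 16.7% in URD libraries 1 to 4. URD library 4 was the highest and URD library 1 the lowest, so the groups overlapped fully (7.11% ± 2.03 in CRD and 8.26% ± 5.83 in URD, adjusted p = 0.879). The smallest p of an Igf2 tile was that of the 12 CpGs at chr7:142660001-142661000, at 0.0928% ± 0.186 in CRD and 0.278% ± 0.238 in URD (p = 0.382, adjusted p = 0.809 in the quasi-binomial fit). The Igf2 CpG of smallest p, at chr7:142659346, read 3.45, 0, 5 and 8.33% in CRD and 0% in each URD library (adjusted p = 0.622), with 12 to 36 reads.

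At the start of Kcnq1ot1, where the control region of the other cluster lies, methylation was low and differed from library to library in both groups. The 9 CpGs spanned 112 bp at chr7:143295498-143295610, 937 to 1049 bp downstream of the start and thus inside both Kcnq1ot1 and Kcnq1. They averaged 3.56, 0, 11.8 and 0% in CRD libraries 1 to 4, against 27.9, 12.3, 0 and 11.1% in URD libraries 1 to 4. A pair of CRD libraries and 1 URD library had no methylated read, and URD library 1 stood far above the rest. The mean was 3.83% ± 5.55 in CRD and 12.8% ± 11.5 in URD, a difference of -8.99 points, which the scatter among libraries covered (exact two-sided permutation test, p = 0.286). The quasi-binomial fit gave the tile p = 0.0517 and an adjusted p of 0.773, and an unadjusted p of 0.781 with the lean of the reads as a covariate. The CpG of smallest p, chr7:143295610, read 0, 0, 11.8 and 0% in CRD libraries 1 to 4, against 28.1, 14.3, 0 and 12% in URD libraries 1 to 4 (quasi-binomial p = 0.0182, adjusted p = 0.622). Without URD library 1 the difference was -3.97 points.
edgeR's quasi-likelihood test called this tile (adjusted p = 0.0158), 1 of 110 tiles it called among 33897, as the only call at a member tile in any setting tried. The range of its adjusted p over the settings was 0.0158 to 1.

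The 9 Kcnq1ot1 CpGs did not give 9 separate readings. In 64 of the 72 combinations of CpG and library, the count of methylated reads equalled the library's most frequent count, and the remaining ones were 1 read off. CRD library 3 had 2 methylated reads of 17 at each CpG, and URD library 3 had 0 of 33 at each. By contrast, only 8 of 24 combinations were at the most frequent count at the 3 CpGs near the H19 start, where counts within a library differed by up to 10 reads, and 31 of 112 at the 14 Cdkn1c CpGs. At 1 CpG of the run, chr7:143295498, reads summed over libraries gave 3 methylated of 72 in CRD (4.17%, Wilson 95% interval 1.43 to 11.5%) and 14 of 117 in URD (11.97%, interval 7.26 to 19.1%). For the libraries with no methylated read, a count of 0 allows up to 15.8% in CRD library 2, 27.3% in CRD library 4 and 9.09% in URD library 3.
A run of 4 more CpGs, at chr7:143295405-143295437 and 1110 to 1142 bp downstream of the start, had 2 to 10 reads per library and so did not meet the minimum. There the count of methylated reads was the same at all 4 CpGs of each library (32 of 32 combinations), and at the first of them 7 of 23 reads were methylated in CRD (30.4%, interval 15.6 to 50.9%) and 9 of 21 in URD (42.9%, interval 24.5 to 63.5%). Over both groups the level was 36.4% (16 of 44, interval 23.8 to 51.1%) at this run and 8.99% (17 of 189, interval 5.69 to 13.9%) at the deeper run beside it. These CpGs were chosen after their values were seen.

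Cdkn1c, which Kcnq1ot1 represses on the paternal chromosome, was partly methylated within its body and upstream. The 14 CpGs nearest its start lay 1623 to 1713 bp downstream, at chr7:143459346-143459436. They averaged 11.5, 4.17, 22.5 and 8.57% in CRD libraries 1 to 4, against 12.9, 15.7, 22.0 and 14.05% in URD libraries 1 to 4. CRD library 3 was the highest of all and the other CRD libraries lay below all URD ones. The mean was 11.7% ± 7.83 in CRD and 16.2% ± 4.03 in URD, a difference of -4.48 points (exact permutation p = 0.314). Without CRD libraries 1 and 2 it was -0.615 points, and without CRD library 3 it was -8.10 points (exact permutation p = 0.0571, the smallest 3 against 4 libraries allow).
The CpG of smallest p, chr7:143459376 among these 14, read 3.33, 0, 23.1 and 0% in CRD libraries 1 to 4, against 16.2, 15.2, 29.4 and 13.3% in URD libraries 1 to 4 (quasi-binomial p = 0.0881, adjusted p = 0.622).
The other 15 Cdkn1c CpGs, 6 in the body and 9 at 2988 to 4401 bp upstream, averaged 30.0% ± 3.44 in CRD and 28.1% ± 2.70 in URD. The 4 tiles went in different directions. In the body, the tile at chr7:143458001-143459000 stood at 35.5% ± 4.26 in CRD and 32.6% ± 5.82 in URD, and the next at 14.6% ± 5.52 in CRD and 16.6% ± 2.42 in URD. Upstream, the tile at chr7:143464001-143465000 had the smallest p of the gene, at 12.9, 10.4, 15.3 and 7.84% in CRD libraries 1 to 4 against 17.4, 13.5, 17.3 and 21.7% in URD libraries 1 to 4. Only CRD library 3 exceeded a URD library. The difference was -5.83 points (11.6% ± 3.21 in CRD and 17.45% ± 3.35 in URD, p = 0.145, adjusted p = 0.773 in the quasi-binomial fit). Its neighbour at chr7:143465001-143466000 stood at 37.3% ± 6.09 in CRD and 32.9% ± 3.02 in URD. The CpGs within 1 kb of the start were too shallow for the minimum. At 5 reads there were 18 of them, at 28.1% ± 9.17 in CRD and 33.0% ± 7.47 in URD.

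Phlda2 was almost free of methylation around its start. Its 32 CpGs spanned 276 bp upstream to 176 bp downstream of the RefSeq promoter table's start (chr7:143502524), all in 1 tile. The tile stood at 0.211, 0.235, 0.171 and 0.875% in CRD libraries 1 to 4, against 0.450, 2.24, 0.290 and 1.30% in URD libraries 1 to 4. CRD library 4 was above a pair of URD libraries, and the other 3 CRD libraries were below every URD library. The means were 0.373% ± 0.336 in CRD and 1.07% ± 0.899 in URD, a difference of -0.697 points (p = 0.0191 in the quasi-binomial fit, the smallest of the domain's tiles, adjusted p = 0.760). The CpG of smallest p, chr7:143502375, had no methylated read in any CRD library and read 0, 0, 4.76 and 9.76% in URD libraries 1 to 4 (quasi-binomial p = 0.0283, adjusted p = 0.622). In the promoter printed earlier, no methylated read was seen at any of 18 CpGs in any CRD library, where the deepest CpG had 15 to 31 reads and a count of 0 allows up to 9.68 to 20.0% per library. Among the URD libraries, library 2 had 13 methylated reads summed over these CpGs, libraries 1 and 3 had 1 each and library 4 had 0, so the mean of 0.810% ± 1.27 came mostly from 1 library. No CpG of this promoter had more than 1 methylated read in URD library 2, and neighbouring CpGs can be read on the same fragment. The 13 counts are therefore not 13 separate readings, and the p of the tile rests on such summed counts. Without URD library 2 the difference of the 32-CpG mean was -0.248 points instead of -0.656 points. At 5 reads, where 24 CpGs were added, the mean was 0.980% ± 0.933 in CRD and 0.678% ± 0.504 in URD.

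Ascl2 was nearly unmethylated in both groups. Its 42 CpGs, from 229 bp upstream to 839 bp downstream of the start, averaged 0.458% ± 0.189 in CRD and 0.449% ± 0.215 in URD. The 12 CpGs of the printed promoter averaged 0.169% ± 0.198 in CRD and 0.352% ± 0.332 in URD. Of its 2 tiles the one with the smaller p, with 28 CpGs at chr7:142969001-142970000, stood at 0.542% ± 0.160 in CRD and 0.502% ± 0.283 in URD (p = 0.499, adjusted p = 0.875 in the quasi-binomial fit). The CpG of smallest p, chr7:142969179, averaged 2.26% ± 2.97 in CRD and 0% in URD, with methylated reads in CRD libraries 1 and 4 only (adjusted p = 0.622).

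Kcnq1, the gene of a potassium channel subunit and the host of Kcnq1ot1, had an unmethylated start and a body that varied widely from tile to tile. The 8 CpGs at its start (562 to 649 bp downstream) averaged 0.164% ± 0.329 in CRD and 0.468% ± 0.396 in URD. Outside Kcnq1ot1 its 51 CpGs averaged 33.1% ± 1.55 in CRD and 32.4% ± 1.15 in URD, and tile means ran up to 87.8% in CRD and 84.0% in URD at chr7:143412001-143413000. Of the 49 tested CpGs outside Kcnq1ot1, 21 were lower and 28 higher in CRD.
Its tile of smallest p outside Kcnq1ot1, with 5 CpGs at chr7:143325001-143326000, stood at 76.9% ± 4.33 in CRD and 72.6% ± 8.52 in URD (quasi-binomial p = 0.349, adjusted p = 0.788). At 5 reads the whole gene region had 101 CpGs, at 25.6% ± 1.501 in CRD and 27.1% ± 0.838 in URD.
Its CpG of smallest p outside Kcnq1ot1, at chr7:143333197 in the body beyond the Kcnq1ot1 start, read 53.3, 57.1, 55.9 and 50% in CRD libraries 1 to 4, against 38.6, 47.8, 38.1 and 38.0% in URD libraries 1 to 4. All CRD libraries lay above all URD libraries, and URD library 2 stood nearest to them. The mean was 54.1% ± 3.15 in CRD and 40.6% ± 4.80 in URD, 13.5 points higher in CRD (p = 0.0238, adjusted p = 0.622 in the quasi-binomial fit), with 24 to 69 reads. A second CpG with separated groups, chr7:143154852, averaged 4.72% ± 0.726 in CRD and 0.893% ± 1.79 in URD (adjusted p = 0.622). It rests on 1 or 2 methylated reads per CRD library (2 of 54 in CRD library 1, the lowest), against 2 of 56 in URD library 2 and 0 in the other 3 URD libraries. These 2 of 163 tested CpGs stand beside 0.847% of all tested CpGs with every CRD library above every URD library.

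The H19 side and the Kcnq1ot1 start differed in level, and no difference between them in the response to diet was detectable. In every library the H19 side was more methylated than the Kcnq1ot1 start, by 51.1, 52.2, 42.2 and 56.6 points in CRD libraries 1 to 4 and by 36.6, 49.4, 67.5 and 56.0 points in URD libraries 1 to 4. The gap averaged 51.4 ± 9.37 points over the 8 libraries (exact two-sided sign-flip test, p = 0.00781, the smallest it can give). The 9 Kcnq1ot1 CpGs were not 9 separate readings, and the shallower run beside them stood at 36.4% over both groups. By diet the gap was 50.5 ± 6.02 points in CRD and 52.4 ± 12.9 points in URD, and the difference of the diet differences was -1.84 points (exact permutation p = 0.857). Its sign turned without CRD library 3 (0.925 points) and without URD library 3 (3.19 points). It also turned at a minimum of 5 reads (15.3 points, exact permutation p = 0.0857). Against the Cdkn1c CpGs the H19 side was higher by 42.7 ± 7.81 points in CRD and 49.0 ± 3.85 points in URD (exact permutation p = 0.171). Against the Phlda2 start, which was near 0, it was higher by 54.0 ± 1.61 points in CRD and 64.2 ± 3.42 points in URD (exact permutation p = 0.0286, the smallest possible). On the other side of the domain, the Cdkn1c CpGs exceeded the Kcnq1ot1 start in 7 of 8 libraries, by 5.60 ± 10.3 points (exact sign-flip p = 0.180). The Phlda2 start minus the Kcnq1ot1 start was -7.62 ± 9.52 points (SD over libraries, exact sign-flip p = 0.0625) and was above 0 in 3 of 8 libraries.

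**Figure D4:**
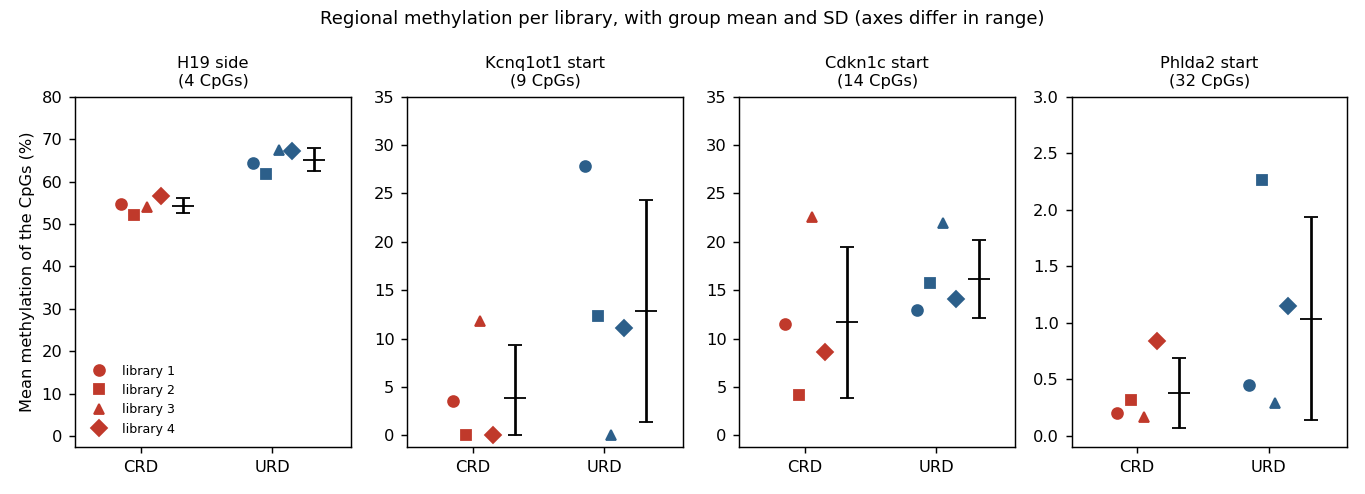
Mean methylation (%, y axis, a different range in each panel) of the H19 side, the Kcnq1ot1 start, the Cdkn1c start and the Phlda2 start in each library, CRD left and URD right, with the symbol giving the library number and the bar the group mean and SD (its lower arm ends at 0). The groups are separate at the H19 side, at 52.2 to 56.6% in CRD and 61.7 to 67.5% in URD, and overlap in the other 3 panels. The Cdkn1c panel holds the 14 CpGs that lie 1623 to 1713 bp downstream of the start, in the gene body.

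Of 24 listed genes around the domain, 19 could be tested as gene regions, 0 were called by the quasi-binomial fit and 2 had an unadjusted p under 0.05, with 12 lower and 7 higher and a median difference of -0.0565 points against -0.0882 points over all gene regions. Some neighbours share CpGs with members, such as Slc22a18 with Phlda2 and Igf2os with Igf2. Mob2 and Tnfrsf23 had every CRD library below every URD library, an order that 3.9% of all gene regions showed. Mob2 stood at 2.50% ± 0.239 in CRD and 3.71% ± 0.246 in URD (adjusted p = 0.174 in the quasi-binomial fit). Of 27 imprinted genes elsewhere in the genome, 24 were tested and 0 called. Among these, 22 were lower and 2 higher, and the median difference was -5.11 points. An unadjusted p under 0.05 was reached by 9, against 11.3% of all gene regions. In 4 (H13, Mest, Inpp5f and Zrsr1) every CRD library lay below every URD library. Some regions overlap and share CpGs, such as Mcts2 inside H13 and Peg13 inside Trappc9, so the counts are not of 24 separate readings. Over all gene regions at 20 to 80% methylation the median was -2.25 points. With -10.8 points the H19 region lay below that median and in the direction of most of the listed imprinted genes, but at 5 reads it turned to 2.44 points. The Kcnq1ot1 region, at 8.33% and so outside that class, had -8.99 points, and -3.97 points without URD library 1. The gene regions of Igf2, Ascl2, Kcnq1 and Phlda2 differed by less than 1 point, and that of Cdkn1c was 1.15 points higher in CRD. The domain was not tested against this list.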

How the data were processed

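Reduced representation bisulfite sequencing was done on sorted nephron progenitors, with 4 CRD and 4 URD libraries grouped by their titles. The build mm10 and the tools Bismark 0.13.1, methylKit, Trim Galore 0.3.3, FastQC and cutadapt appear in the submitters' processing notes, with no settings. In the deposited files each cytosine of a CpG has a read count and the percent of reads that were methylated and unmethylated. Methylated reads were recovered by rounding, since at up to 1000 reads percent times count was at most 0.0488 from an integer. Both cytosines of a CpG were then summed. Mitochondrial CpGs, used as a check of bisulfite conversion, were methylated in 0.0221 to 0.0854% of reads.

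Gene limits came from a RefSeq table of GRCm38.p6. Its strand was added by hand for the 8 genes, and exons, introns, UTRs and CpG islands were not used. Methylated against total reads were modelled by quasi-binomial logistic regression with 1 term for diet and a dispersion moderated over all units and kept at 1 or more. Benjamini-Hochberg adjustment ran over each whole table of tiles (33897 tested), CpGs (191637), gene regions (21083) and gene-end windows (19207). Each model was checked on simulated counts with changes of known size. In these an unadjusted p under 0.05 was more frequent among unchanged tiles, gene regions and windows than its nominal rate, and edgeR made more calls than tiles had been changed. Single values were compared by exact permutation over 70 splits, or by exact sign flips over 8 libraries. Levels are means over libraries with SD, and differences are CRD minus URD in percentage points. Alternatives used limma 3.58.1 on log2((methylated + 1)/(unmethylated + 1)), edgeR 4.0.16, other coverage minimums (5 and 20 reads), tiles, margins and windows, covariates, and sets of libraries. Python 3.11.15 and R 4.3.3 were used.

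The members, gene lists and tests were chosen with earlier results of these data known. By rule, all 8 members are named, with their tiles at the H19 side and at the Kcnq1ot1, Cdkn1c and Phlda2 starts, any called or non-overlapping tile, and the tile and CpG of smallest p per gene.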

Additional observations from a re-analysis of the deposited data

Results flagged for a closer look

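Among 40 groups of 4 libraries examined, 3 had a library far from the other 3, where chance gives about 1 in 20 for normal values in separate groups. That rate does not hold strictly here, since some groups share CpGs and some values are tied at 0%. At the Kcnq1 start CRD library 1 stood at 0.658% while the other 3 CRD libraries were at 0%, so that any value above 0 would have been flagged. In the Kcnq1 tile at chr7:143333001-143334000, which holds the single CpG with higher CRD levels, URD library 2 stood at 47.8% and the next URD library at 38.6%. In the Phlda2 tile CRD library 4 stood at 0.875% and the next CRD library at 0.235%, but the plain mean over the same 32 CpGs was not flagged.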

How the results depend on the processing

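Over 27 alternative settings, no setting other than edgeR called a tile, CpG, gene region or window of the domain. edgeR called 1 tile and 1 window, both at the Kcnq1ot1 start, among 110 tiles and 45 windows in all, and the cause was not tested. The H19 difference of -10.8 points ranged from -12.0 to -10.1 points without 1 library (exact permutation p = 0.0571, the smallest possible) and was -9.91 points without CRD libraries 1 and 2 (exact permutation p = 0.133, likewise the smallest). With the replicate block it was -10.8 points (exact sign-flip p = 0.125, the smallest 4 pairs allow). Libraries of the same number were not shown to be paired (correlations of deviations -0.0872 to -0.0129, and 0 of 4 CRD libraries closest to their own number), and the block left 0 calls over all features.
At a coverage minimum of 5 reads, directions turned at the H19 side (6.32 points, exact permutation p = 0.0571), the Phlda2 start (0.302 points, p = 0.657) and the H19 against Kcnq1ot1 contrast (15.3 points, p = 0.0857), where shallower CpGs entered. The turned smaller values at 5 reads were 0.0605 points (Phlda2 tile) and, for gene regions, 2.44 (H19), -0.136 (Kcnq1), -0.692 (Cdkn1c) and 0.0757 points (Phlda2). Without 1 library the contrast ranged from -7.09 to 3.19 points, and it turned without CRD library 3 (0.925 points) and URD library 3 (3.19 points). Gene regions near 0 also turned without 1 library, with ranges of -0.0429 to 0.0728 points (Ascl2), -1.09 to 0.959 points (Kcnq1) and -0.1996 to 0.0487 points (Igf2). The level gap between H19 and Kcnq1ot1 ranged from 49.2 to 53.6 points without 1 library. At 20 reads H19, Kcnq1ot1 and Phlda2 had no CpG, the H19 body alone had none at 10 reads, and no value could be given. Depth limits the values at H19 (10 to 37 reads per CpG and library), Kcnq1ot1 (11 to 33) and Phlda2 (10 to 41).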
